A study of Arabidopsis thaliana with 15 samples.

Results

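Chloroplast ribosomes are of the bacterial type, and most of their proteins are encoded in the nucleus. The mRNAs of 38 such genes, named here as a list of locus identifiers out of 33323 genes, were followed in etiolated Arabidopsis thaliana Col-0 seedlings on exposure to light, in total and in polysome-bound RNA. The list held 26 genes of the large (50S-type) subunit and 12 of the small (30S-type) subunit. Of these, 33 encode counterparts of bacterial ribosomal proteins, called PRPL and PRPS, and 5 encode plastid-specific ribosomal proteins, called PSRP. The rule uses no measured value, although the list was drawn up with earlier results of these data known, and all 38 passed the filter on low counts in every comparison.

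The plastid ribosome makes the proteins encoded in the plastid genome, among them the large subunit of Rubisco and the core proteins of both photosystems. Its nuclear-encoded proteins are made on cytosolic ribosomes and imported, so the polysome-bound RNA measured here is that on cytosolic ribosomes. Where a place or role within the ribosome is named below for a PRPL or PRPS protein, it is that of its Escherichia coli counterpart, unless Arabidopsis is named. In darkness seedlings form etioplasts, and light starts their conversion to chloroplasts.

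Wild-type seedlings were grown on plates for 4 days in darkness at 22 °C after cold treatment of the seeds for 4 days. The L4h group then received white light of 100 µmol m-2 s-1 for 4 h, the D4h group stayed dark for the same 4 h, and the Dark group was harvested without further time. Total RNA of the aerial part was sequenced from L4h, D4h and Dark seedlings, and polysome-bound RNA from L4h and Dark seedlings only. Each of the 5 groups had 3 libraries by the labels, whereas the series text speaks of 2 replicates. All groups share the genotype, and nothing in the labels says whether libraries came from separate cultures, so p-values measure the spread between these libraries only.

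Between 60.8 and 100.9 M reads per library fell in listed genes, and each of the 38 genes had 1274 to 68823 reads in each library. Within every group, library 1 stood apart. It differed from libraries 2 and 3 by a median of 0.36 to 0.60 log2 units per gene, whereas libraries 2 and 3 differed from each other by 0.06 to 0.34. D4h libraries 2 and 3 were the closest pair, with a median chi-square 2.65 times that of counting noise, against 10.9 to 131 times in the other pairs, and were kept as 2 libraries. The library labelled D4h replicate 1 had a summed level of 14 light-harvesting antenna mRNAs of 16417 RPKM, against a lowest D4h value of 1534 RPKM, 12133 to 22160 RPKM in L4h and 647 to 2872 RPKM in Dark. Of 10 root markers, COBL9, EXPA7, EXPA18, NRT2.1 and IRT1 had a median of at most 0.0993 RPKM over the libraries, whereas CASP1 and CASP2, markers of the root endodermis, had medians of 312 and 192 RPKM. The root markers EIR1, PRP3 and SMB had medians of 4.04, 0.639 and 0.184 RPKM. The shoot epidermis markers PDF1 and ATML1 had medians of 479 and 40.1 RPKM. Those of the other shoot markers, KAT1, STM, FAMA and SPCH, were 10.9, 5.73, 1.00 and 0.988 RPKM. Summed root markers ranged from 183 to 507 RPKM in L4h, 322 to 600 RPKM in D4h and 232 to 624 RPKM in Dark. In polysome-bound RNA they ranged from 389 to 462 RPKM in L4h and from 573 to 761 RPKM in Dark. CASP1 and CASP2 made up most of these sums. All 6 root markers that passed the filter on low counts had negative log2 changes in total RNA of L4h against Dark, and 2 of the 6 fell: EIR1, an auxin transporter gene of the root (-2.16 ± 0.26, adjusted p = 0.00173, edgeR), and SMB, a root cap gene (-2.39 ± 0.63, adjusted p = 0.0303, edgeR). Of 6 shoot markers SPCH, of the stomatal lineage, rose (2.96 ± 0.75, adjusted p = 0.0255, edgeR) and none fell. The part of these markers in the results was not tested.

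Levels are given as RPKM (reads per kilobase of the length listed for the gene and M reads mapped), the authors' unit, which allows genes of different listed length to be compared. In total RNA of L4h seedlings the median of the 38 genes was 156, 115 and 167 RPKM in libraries 1 to 3, against 223, 49.9 and 48.8 RPKM in D4h and 50.6, 41.5 and 39.0 RPKM in Dark. In polysome-bound RNA it was 501, 204 and 142 RPKM in L4h, against 223, 73.7 and 59.6 RPKM in Dark. Their share of all reads was 0.588%, 0.443% and 0.62% in L4h and 0.206%, 0.154% and 0.148% in Dark total RNA. A lower share of reads cannot be told apart from fewer cells that carry these mRNAs. The genes lay close together in level: the highest and the lowest differed by 3.52 to 6.70 times within a total RNA library and by 5.88 to 12.5 times within a polysome-bound one.

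**Figure D1:**
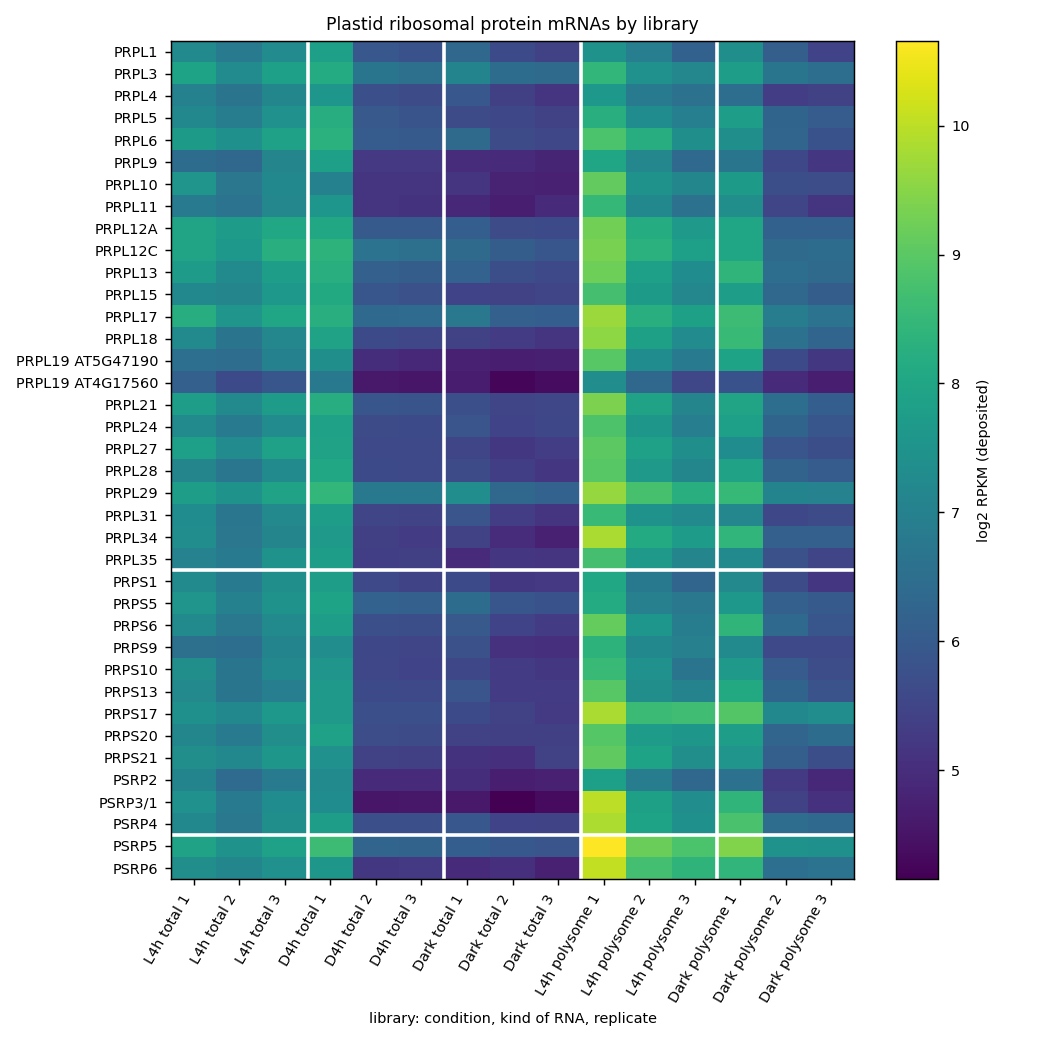
Heat map of log2 RPKM for the 38 plastid ribosomal protein genes (rows) in the 15 libraries (columns), with white lines where the subunit or the group changes. L4h columns are brighter than Dark columns in total RNA, and in polysome-bound RNA they are so number by number, with Dark library 1 brighter than L4h libraries 2 and 3 in most rows; the library labelled D4h replicate 1 is brighter than D4h libraries 2 and 3, and PSRP5 is the brightest row in polysome-bound RNA.

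Ordered by mean RPKM over the 15 libraries, PSRP5, PRPL29, PRPS17 and PRPL17 stood highest and PRPL4, PRPL9, PSRP2 and the PRPL19 gene AT4G17560 lowest. PSRP5, a plastid-specific protein of the large subunit, averaged 338 RPKM, and the PRPL19 gene AT4G17560, for a protein at the bridge between the subunits, averaged 53.5 RPKM. Neighbours in the order differed by less than their spread over the 15 libraries, which includes the differences between conditions and kinds of RNA. In polysome-bound RNA PSRP5 averaged 885 RPKM in L4h and 345 RPKM in Dark, against 511 and 209 RPKM for PRPL29, at the rim of the exit tunnel. PRPS17 averaged 567 and 263 RPKM there, against 171 RPKM in L4h and 43.4 RPKM in Dark total RNA. In total RNA PSRP5 had 241, 178 and 235 RPKM in L4h and 68.7, 61.6 and 58.1 RPKM in Dark. PRPL29 had 220.0, 179 and 239 RPKM in L4h and 163, 80.6 and 73.5 RPKM in Dark total RNA. At the low end, PRPL9, below the L1 stalk, had 87.8, 79.7 and 139 RPKM in L4h and 31.5, 30.2 and 28.6 RPKM in Dark. PRPL4, in the wall of the exit tunnel, had 129, 101.1 and 139.9 RPKM in L4h and 60.4, 42.1 and 34.9 RPKM in Dark. PSRP2, an RNA-binding protein, had 135, 85.9 and 117 RPKM in L4h and 32, 26.2 and 26.9 RPKM in Dark. The order itself differed between kinds of RNA and between conditions. Spearman's rho over the 38 genes between group means was 0.64 for L4h and Dark total RNA and 0.85 for L4h and Dark polysome-bound RNA. Between polysome-bound and total RNA it was 0.59 within L4h and 0.46 within Dark. It was 0.21 for L4h polysome-bound and Dark total RNA, which differ in both condition and kind of RNA. These values describe means that share no library. PSRP5 and PRPS17 overlap annotated genes, as do 15 of the 38 in all, and reads of overlapping genes cannot be told apart because the strand setting is not given in the sources used here.

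The balance between large and small subunit genes moved within a narrower range in total RNA than in polysome-bound RNA. The mean RPKM of a large subunit gene over that of a small subunit gene was 1.15 to 1.17 in L4h, 1.20 to 1.26 in D4h and 1.13 to 1.21 in Dark total RNA. In polysome-bound RNA it was 1.04 to 1.21 in L4h and 0.952 to 1.09 in Dark.

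In total RNA, 16 of the 38 genes rose and none fell in L4h against Dark (quasi-likelihood F test of edgeR, p adjusted by Benjamini-Hochberg over 21735 genes). Of all genes tested, 12.3% were called higher and 10% lower. All 38 log2 changes were positive, from 1.03 to 2.88, with a median of 1.80, beside a median of -0.02 over all genes. RPKM values of all 38 genes in the 3 L4h libraries lay above those in the 3 Dark libraries, which held for 21.5% of all genes tested. The changes were close together: the quartiles of the members were 1.53 and 2.03, beside -0.47 and 0.47 for all genes, and 6.69% of all genes reached the members' median. With same-numbered libraries as a block, 37 of 38 rose (15.2% of all genes). That fit also held the D4h libraries, which failed the check of pairing by number. Without the libraries numbered 1, 38 of 38 rose (24% of all genes). The call was not stable to single libraries: 0 genes passed without Dark library 2 or Dark library 3 (3.73% and 4.52% of all genes were called higher), 1 without L4h library 3 (6.56%), and 5 to 8 without any other library of these groups (7.46% to 11.1%).

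Among large subunit genes 11 of 26 rose, with a median of 1.80, and among small subunit genes 5 of 12, with a median of 1.78. Of the plastid-specific genes 3 of 5 rose (median 2.03), and of the bacterial-type genes 13 of 33 (median 1.79).

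Plastid-specific genes held the 2 largest changes. PSRP3/1 (AT1G68590), a small subunit protein, had 173, 113 and 159 RPKM in L4h, against 24.3, 17.8 and 20.3 RPKM in Dark. The groups did not overlap, and its log2 change was 2.88 ± 0.72 (estimate ± SE, adjusted p = 0.0252, edgeR). PSRP6 (AT5G17870), of the large subunit, had 165, 139.9 and 176 RPKM in L4h, against 30.7, 33.5 and 26.8 RPKM in Dark. It rose by 2.44 ± 0.60 log2 units (adjusted p = 0.0233, edgeR), and its groups did not overlap either. PSRP2 rose too, by 2.03 ± 0.58 (adjusted p = 0.0398, edgeR), whereas PSRP5 (1.84 ± 0.59, adjusted p = 0.0552) and PSRP4 (1.53 ± 0.53, adjusted p = 0.0684) did not pass. PSRP3/1 overlaps the annotated gene AT1G68585.

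The stalk and its base are where translation factors dock. PRPL10, which anchors the stalk, had 188, 107 and 145 RPKM in L4h, against 35.3, 27.5 and 27 RPKM in Dark, a log2 change of 2.34 ± 0.51 (adjusted p = 0.0161, edgeR). The stalk genes PRPL12A and PRPL12C rose by 2.15 ± 0.52 and 1.86 ± 0.48 (adjusted p = 0.023 and 0.0267, edgeR). PRPL11, at the base of the stalk and needed for normal greening in Arabidopsis, had 116, 99.1 and 144 RPKM in L4h, against 29.8, 26.1 and 31 RPKM in Dark, a log2 change of 2.09 ± 0.61 (adjusted p = 0.0427, edgeR).

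Near the peptidyl transferase centre, PRPL27 had 225, 156 and 235 RPKM in L4h, against 45.4, 36.8 and 40.5 RPKM in Dark, with no overlap. It rose by 2.37 ± 0.60 (adjusted p = 0.0257, edgeR). PRPL3, near the same centre, had 245, 157 and 228 RPKM in L4h, against 136, 87.3 and 85 RPKM in Dark, and its change of 1.07 ± 0.44 was among the 3 smallest (adjusted p = 0.115, edgeR). The others were PRPL29 (1.03 ± 0.50, adjusted p = 0.168) and PRPL1, of the L1 stalk (1.31 ± 0.53, adjusted p = 0.11). PRPL29 had the widest spread in Dark, where library 1 stood at 163 RPKM and the other libraries at 80.6 and 73.5 RPKM.

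Among small subunit genes, PRPS1, PRPS17 and PRPS21 have been studied through Arabidopsis mutants, as have others. PRPS21 (GHS1), near the site where translation starts, had 165, 145 and 192 RPKM in L4h, against 34.3, 32.6 and 43.1 RPKM in Dark, a log2 change of 2.23 ± 0.52 (adjusted p = 0.0196, edgeR). PRPS17, of early body assembly, had 171, 146 and 196 RPKM in L4h, against 49.2, 43 and 38 RPKM in Dark, and rose by 2.02 ± 0.49 (adjusted p = 0.0223, edgeR). PRPS1, which binds mRNA, had 151, 115 and 168 RPKM in L4h, against 49.1, 37.2 and 37.5 RPKM in Dark; the groups did not overlap, but its change of 1.84 ± 0.57 missed the threshold (adjusted p = 0.0508, edgeR). The remaining 6 bacterial-type small subunit genes had changes from 1.32 (PRPS5, at the mRNA entry) to 1.79 (PRPS10, of the head), and PRPS10 was the one called.

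**Figure D2:**
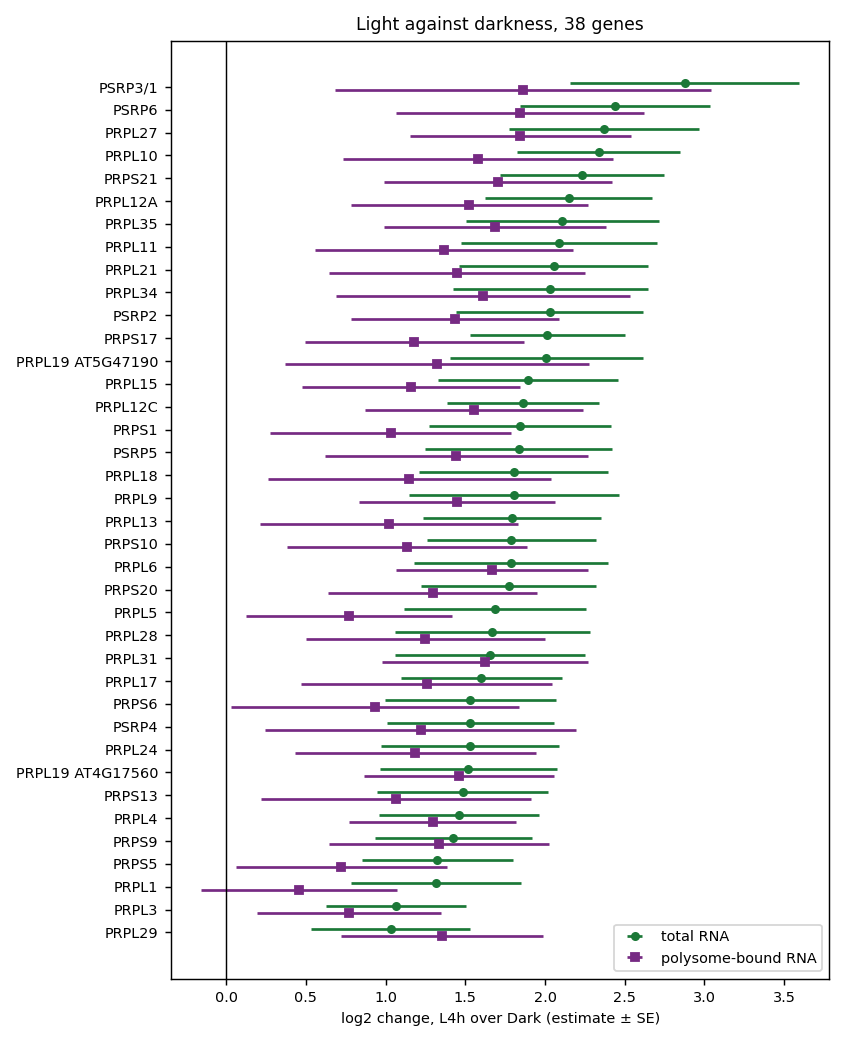
Log2 change ± SE of L4h over Dark for each of the 38 genes, in total RNA (circles) and polysome-bound RNA (squares), ordered by the change in total RNA. All points lie right of 0, with PSRP3/1 at the top and PRPL29 at the bottom.

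Paralogous members were compared for how their reads could be split. PRPL12A and PRPL12C had coding sequences 91.5% identical over their alignment and shared 226 of 960 stretches of 50 bases, so part of their reads could have been assigned to either. PRPL12A had 247, 212 and 265 RPKM in L4h, against 68, 50.1 and 49 RPKM in Dark, and PRPL12C had 249, 196 and 306 RPKM in L4h, against 85, 67.3 and 59.6 RPKM in Dark. The third gene of that cluster, PRPL12B, which is no member, was listed at 0 in all 15 libraries. The 2 PRPL19 genes shared none of 960 stretches, with coding sequences 79.7% identical. AT5G47190 had 92.4, 90.0 and 129 RPKM in L4h, against 26.8, 26.1 and 26.5 RPKM in Dark, and AT4G17560 had 70.7, 49.3 and 59.9 RPKM in L4h, against 25.1, 18.8 and 20.6 RPKM in Dark. AT5G47190 rose by 2.01 ± 0.61 (adjusted p = 0.0463, edgeR), and the change of AT4G17560 was 1.52 ± 0.56 (adjusted p = 0.0825, edgeR); the difference between them was not tested.

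Promoters are shown for PSRP3/1 and PSRP6, with the largest light responses, for PRPS5, with a small one, and for the PRPL19 gene AT4G17560, with the lowest mean level, as the 250 bases before the annotated gene start, in TAIR10.1 as given by RefSeq, 5′ to 3′ on the strand of the gene. Capitals mark the motifs searched on both strands: the telo box AACCCTA and the site II element TGGGCC or TGGGCT, both known from promoters of genes of the cytosolic ribosome, the G box CACGTG, bound by light-regulated bZIP and bHLH factors, and the I box GATAAG, found in photosynthesis gene promoters. PSRP3/1 lies at chr1:25758412-25758661, minus strand, PSRP6 at chr5:5907339-5907588, plus strand, PRPS5 at chr2:14302497-14302746, minus strand, and AT4G17560 at chr4:9779974-9780223, plus strand.
PSRP3/1: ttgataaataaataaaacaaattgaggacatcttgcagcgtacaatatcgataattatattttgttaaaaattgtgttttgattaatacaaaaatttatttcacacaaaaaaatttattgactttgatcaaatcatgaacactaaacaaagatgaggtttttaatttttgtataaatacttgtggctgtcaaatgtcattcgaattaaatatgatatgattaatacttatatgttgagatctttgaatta
PSRP6: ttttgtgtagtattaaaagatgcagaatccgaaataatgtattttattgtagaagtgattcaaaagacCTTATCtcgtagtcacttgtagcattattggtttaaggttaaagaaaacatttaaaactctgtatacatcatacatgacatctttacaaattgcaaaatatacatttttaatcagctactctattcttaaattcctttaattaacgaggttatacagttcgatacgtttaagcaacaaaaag
PRPS5: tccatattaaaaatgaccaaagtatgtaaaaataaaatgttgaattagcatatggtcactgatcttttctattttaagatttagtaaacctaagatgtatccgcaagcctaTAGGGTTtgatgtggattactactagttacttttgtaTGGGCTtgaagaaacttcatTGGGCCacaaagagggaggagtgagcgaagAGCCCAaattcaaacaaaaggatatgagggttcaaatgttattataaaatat
PRPL19 AT4G17560: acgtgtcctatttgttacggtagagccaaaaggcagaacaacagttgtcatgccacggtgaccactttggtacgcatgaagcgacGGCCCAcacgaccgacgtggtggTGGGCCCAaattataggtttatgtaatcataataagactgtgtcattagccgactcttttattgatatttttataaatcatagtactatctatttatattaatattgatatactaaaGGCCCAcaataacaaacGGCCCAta
The PSRP3/1 window held none of the 4 motifs and the PSRP6 window 1 I box, and PRPS5 held 1 telo box and 3 site II elements. Of the 3 genes with smaller light responses than PRPS5, PRPL29 and PRPL3 held neither a telo box nor a site II element, and PRPL1 held 1 telo box. The PRPL19 gene AT4G17560 held 5 site II elements, of which 2 overlap as TGGGCCCA.

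Over a window of 250 bases before to 50 after the start, 19 of 38 genes (50%) held a site II element, against 21.7% of 27443 promoters of protein-coding genes. An I box was found in 18 of 38 (47.4%), against 14.6% of all promoters, a telo box in 6 of 38 (15.8%), against 8.83%, and a G box in 4 of 38 (10.5%), against 7.68%. Of 30 cytosolic ribosomal protein genes, 23 held a site II element, 14 a telo box and 4 an I box. Of the 23 I box matches, the median position was 12 bases after the start, and in the 250 bases before the start alone 9 genes (23.7%) held one, against 12.3% of all promoters. In those 250 bases 14 genes (36.8%) held a site II element, against 19.2%. A telo box was there in 5 (13.2%), against 6.56%, and a G box in 3 (7.89%), against 6.49%. Windows of most members, such as PRPL1, PRPL34 and PSRP4, reach into other annotated genes within the 250 bases before the start. A match can therefore lie in a neighbouring gene. How many of all promoters have such windows was not counted. The log2 change with light had a median of 1.77 in the 19 genes with a site II element and 1.84 in the 19 without, and of 1.84 in the 18 genes with an I box and 1.73 in the 20 without. It was 1.5 in the 6 genes with a telo box and 1.82 in the 32 without, and 1.53 in the 4 genes with a G box and 1.80 in the 34 without. The ranges overlapped for all 4 motifs. A match is a string of letters and no evidence of binding.

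**Figure D3:**
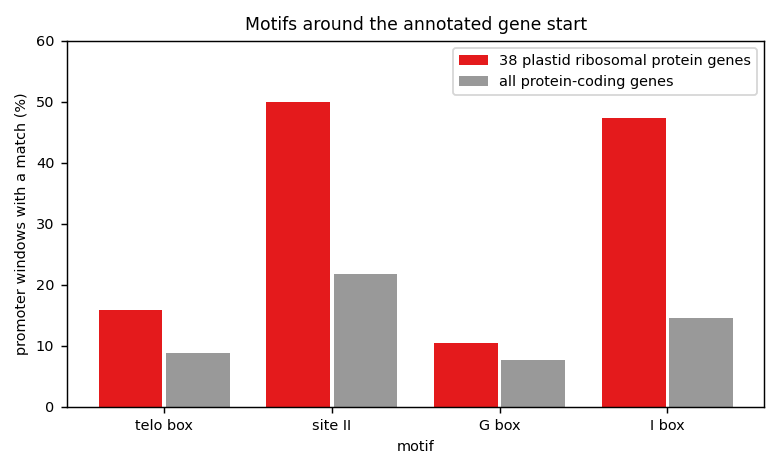
Share of promoter windows (250 bases before to 50 after the annotated start) with at least 1 match, in percent, for the 38 plastid ribosomal protein genes (left bars) and all 27443 promoters of protein-coding genes (right bars). The bars stand at 50% and 21.7% for site II and at 47.4% and 14.6% for the I box.

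Other genes of plastid translation were compared with the ribosomal protein genes under the same contrast. Of 11 plastid translation factor genes 8 rose and none fell, with a median log2 change of 2.15, led by SCO1, the plastid elongation factor EF-G (3.41 ± 0.69, adjusted p = 0.0126, edgeR), and FUG1, the initiation factor IF2 (2.92 ± 0.59, adjusted p = 0.0126, edgeR). All 11 genes of plastid ribosome assembly and rRNA processing rose, with a median of 1.78, led by AT4G34730, of the ribosome-binding factor A family (2.44 ± 0.59, adjusted p = 0.0228, edgeR), and the GTPase gene BPG2 (2.41 ± 0.49, adjusted p = 0.0126, edgeR). Of 30 cytosolic ribosomal protein genes 1 rose and 1 fell, with a median of 0.17: RPSAb rose (0.87 ± 0.22, adjusted p = 0.0253, edgeR), and AT2G40010, a P0 stalk protein, fell (-0.92 ± 0.28, adjusted p = 0.0448, and 0.0519 with the block, at which it did not pass, edgeR). PSRP1 and PSRP3/2 did not pass. PSRP1, related to bacterial hibernation factors, had 92.2, 39.9 and 32.2 RPKM in L4h, against 89.0, 49.3 and 40.6 RPKM in Dark (-0.08 ± 0.52, adjusted p = 0.924, edgeR). PSRP3/2, whose protein is 42.6% identical to PSRP3/1 over the alignment, had 1.95, 1.27 and 3.13 RPKM in L4h, against 1.11, 1.14 and 1.25 RPKM in Dark (0.91 ± 0.46, adjusted p = 0.184, edgeR).

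Seedlings of the same age kept in darkness gave a second comparison, and there the library labelled D4h replicate 1 decided the values. Against Dark, 0 of 38 genes were called in D4h, as were 0% of all genes (edgeR; 19 of the 38 and 794 of all genes had an unadjusted p under 0.05; DESeq2 called 0 of the 38, and 5 higher and 10 lower of all genes). The members' median was 1.22, beside -0.0036 over all genes, and 15 of 38 genes had every D4h library above every Dark library (7.48% of all genes). Without the library labelled D4h replicate 1 the median was 0.18, and without the libraries numbered 1 it was 0.34. The largest changes were those of PRPL9 (1.66 ± 0.65), PSRP3/1 (1.64 ± 0.69) and PRPL11 (1.49 ± 0.60), each with an adjusted p of 0.855 (edgeR). PRPL9 had 228, 37.4 and 37.7 RPKM in D4h, against 31.5, 30.2 and 28.6 RPKM in Dark, and PSRP3/1 had 159.8, 23.5 and 23.7 RPKM in D4h, against 24.3, 17.8 and 20.3 RPKM in Dark. Library 1 alone stood high in both. The smallest were those of PRPL3 (0.57 ± 0.44), PRPL29 (0.76 ± 0.50) and PRPL17 (0.84 ± 0.50), the last near the tunnel exit.

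L4h against D4h called 0 of 38 genes with edgeR (6.74% of all genes were called higher) and 1 of 38 with DESeq2 (12.3%). By edgeR the median was 0.53, beside -0.0032 over all genes. An unadjusted p under 0.05 was found for 1 of the 38 and for 6489 of all 21735 genes tested. Without the library labelled D4h replicate 1, 37 of 38 rose, with a median of 1.60 (15.1% of all genes were called higher), and without the libraries numbered 1 all 38 rose, with a median of 1.5 (24.4% of all genes). PRPL10 had 188, 107 and 145 RPKM in L4h, against 129.9, 35.8 and 35.6 RPKM in D4h, and the largest change, 1.25 ± 0.49 (adjusted p = 0.13, edgeR). PSRP3/1 (1.24 ± 0.68, adjusted p = 0.266) and PRPS21 (1.07 ± 0.50, adjusted p = 0.191) came next. PRPL9 (0.14 ± 0.64), PRPL5, which binds 5S rRNA (0.22 ± 0.56), and PRPL28, of assembly (0.27 ± 0.59), had the smallest. Without D4h library 2 or 3 the median was 0.21 or 0.19, and none passed (2.44% of all genes in either case). For every gene the library labelled D4h replicate 1 lay above the other D4h libraries, and no gene had all L4h libraries above all D4h libraries (13.1% of all genes).

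In polysome-bound RNA none of the 38 genes passed the edgeR test of L4h against Dark without the pairing of libraries (5.36% of all genes were called higher). DESeq2 called 2 of the 38 (10.3% of all genes were called higher). By edgeR, 8 of the 38 and 5298 of all 20975 genes tested had an unadjusted p under 0.05. Log2 changes were positive for all 38, from 0.46 to 1.86, with a median of 1.33 beside -0.0067 over all genes. With same-numbered libraries as a block, 38 of 38 rose (21.9% of all genes), and without the libraries numbered 1, 36 of 38 (9.59%). In each of the 3 numbered pairs every member was higher in L4h than in Dark, with medians of 1.35, 1.5 and 1.22 in polysome-bound RNA, and 1.59, 1.48 and 2.17 in total RNA. Of all genes, 36% were higher in all 3 polysome-bound pairs and 33.3% in all 3 total RNA pairs.

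PSRP3/1 again had the largest change, 1.86 ± 1.18 (adjusted p = 0.392, and 0.00064 with the block, edgeR). It had 1027, 229.5 and 162 RPKM in L4h, against 343, 42.7 and 33.7 RPKM in Dark polysome-bound RNA. Dark library 1 exceeded L4h libraries 2 and 3, so the groups overlapped. PRPL27 had 515, 236 and 167 RPKM in L4h, against 159, 58.2 and 52.9 RPKM in Dark, and a change of 1.85 ± 0.69 (adjusted p = 0.15, and 0.00045 with the block, edgeR). It was 1 of 4 genes whose groups did not overlap, with PRPL4, PRPL6 and PRPL31 (13.8% of all genes). PSRP6 had a change of 1.84 ± 0.78 (adjusted p = 0.197, edgeR). The smallest changes were those of PRPL1 (0.46 ± 0.61), PRPS5 (0.72 ± 0.66) and PRPL3 (0.77 ± 0.58). PRPL1 had 177, 123 and 71.6 RPKM in L4h, against 167, 70.1 and 43.8 RPKM in Dark. Leaving out single libraries moved the members' median between 0.43, without L4h library 1, and 2.25, without Dark library 1, at which 5 genes passed (7.1% of all genes were called higher).

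Within the Dark seedlings, 7 of the 38 mRNAs were higher in polysome-bound than in total RNA and none lower (10.5% of all genes were called higher and 9.28% lower). They were PRPS17, PSRP6, PSRP5, PRPL34, PRPL18, PRPS20 and PRPL15. All 38 log2 changes were positive, from 0.62 to 3.07, with a median of 1.65 beside 0.0041 over all genes, and 24 of 38 had groups apart (13.7% of all genes). With same-numbered libraries as a block 31 of 38 were higher (16.7%), and without the libraries numbered 1, 23 of 38 (11.3%), with a median of 0.87. Without Dark polysome-bound library 1 the median was 0.70, with 2 genes higher, and 2 passed when any single Dark total RNA library was left out (5.53% to 6.65% of all genes in these fits). Without Dark polysome-bound library 2 or 3, 16 or 11 passed (10.6% or 7.86% of all genes).

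PRPS17 had 481, 145 and 163 RPKM in polysome-bound RNA, against 49.2, 43 and 38 RPKM in total RNA of Dark seedlings, a log2 change of 2.90 ± 0.59 (adjusted p = 0.00798, edgeR). PSRP6 had 344, 91.7 and 99.2 RPKM in polysome-bound RNA, against 30.7, 33.5 and 26.8 RPKM in total RNA, a change of 2.86 ± 0.65 (adjusted p = 0.0125, edgeR). PSRP3/1 had 343, 42.7 and 33.7 RPKM in polysome-bound RNA, against 24.3, 17.8 and 20.3 RPKM in total RNA, the largest change at 3.07 ± 1.00, which missed the threshold (adjusted p = 0.0518, and 0.0248 with the block, edgeR). In all 3 genes library 1 of the polysome-bound RNA stood far above libraries 2 and 3. PRPL4 (0.62 ± 0.45), PRPL3 (0.71 ± 0.50) and PRPL1 (0.98 ± 0.54) had the smallest changes, with overlapping groups.

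In L4h seedlings 3 of 38 genes were higher in polysome-bound than in total RNA and none lower (11.6% of all genes were called higher and 9.05% lower). They were PSRP5 (2.44 ± 0.69, adjusted p = 0.0287), PSRP6 (2.33 ± 0.63, adjusted p = 0.025) and PRPS17 (2.13 ± 0.57, adjusted p = 0.0232), by edgeR. PSRP5 had 1618, 583 and 455 RPKM in polysome-bound RNA, against 241, 178 and 235 RPKM in total RNA. PSRP6 had 1063, 419 and 336 RPKM in polysome-bound RNA, against 165, 139.9 and 176 RPKM in total RNA. In both genes the groups were apart, as in 8 of 38 (12.7% of all genes). PRPL34, which binds rRNA, did not pass (2.21 ± 0.77, adjusted p = 0.0654, and 0.0135 with the block, edgeR). PRPL1 (0.18 ± 0.53), PRPS5 (0.46 ± 0.56) and PRPL3 (0.47 ± 0.50) had the smallest changes, and all 3 turned negative without the libraries numbered 1 (-0.31, -0.20 and -0.09). The members' median was 1.24, which 10.3% of all genes reached, and 0.38 without the libraries numbered 1, where 7 of 38 passed (14.1%). With same-numbered libraries as a block 10 of 38 passed (17.5%). None passed when any single L4h total RNA library or L4h polysome-bound library 1 was left out (6.28% to 8.11% of all genes were called higher), and the median was 0.25 without the last. On RPKM, without TMM scaling, the median was 0.68 (limma at either pseudocount).

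Taken per replicate number, the log2 ratio of polysome-bound to total CPM (reads per M reads, scaled by TMM) had a median over the members of 2.09, 0.86 and -0.08 in L4h and of 2.47, 0.85 and 0.91 in Dark, while the median of all genes stayed within 0.03 of 0. On RPKM the medians were 1.57, 0.74 and -0.36 in L4h and 2.17, 0.77 and 0.53 in Dark. By CPM, all 38 members lay above 0 in every pair except L4h number 3, where 17 did. A ratio above 0 in all 3 numbers was thus found for 17 members in L4h (30.4% of all genes) and for 38 in Dark (31.6% of all genes). PSRP6 had ratios of 3.20, 1.69 and 1.22 in L4h and of 3.78, 1.53 and 2.27 in Dark. PRPS1 had ratios of 1.35, 0.06 and -0.84 in L4h and of 1.91, 0.54 and 0.33 in Dark. Number 1 gave the highest ratio for both genes in both conditions, and for PRPS1 the ratio in L4h number 3 was below 0.

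**Figure D4:**
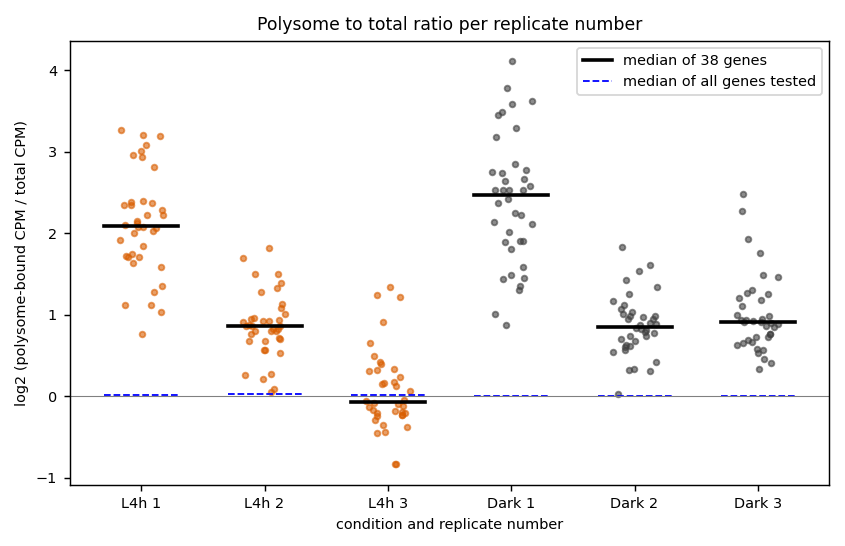
Log2 ratio of polysome-bound to total CPM for the 38 genes (points) in each numbered pair of L4h and Dark libraries, with the median of the 38 genes (solid line) and of all genes tested (dashed line). The medians of the 38 genes stand at 2.09, 0.86 and -0.08 in L4h and at 2.47, 0.85 and 0.91 in Dark.

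The ratio was not found to differ between L4h and Dark. The test of the difference between both ratios (an interaction term) called 0 of 38 genes and 0% of all genes (edgeR). DESeq2 called 0 of the 38, and 2 higher and 1 lower of all genes. By edgeR, 114 of all genes had an unadjusted p under 0.05. The members' median difference was -0.46, beside 0.018 over all genes, with 35 of 38 members and 10381 of all 21924 genes tested below 0. In 21 of 38 the ratio was lower in L4h than in Dark in all 3 numbers (14.8% of all genes), and in 0 it was higher in all 3 (17.5%). The lowest differences were those of PSRP3/1 (-0.95 ± 1.31), PRPL5 (-0.86 ± 0.74) and PRPL1 (-0.80 ± 0.75). The 3 genes above 0 were PRPL29 (0.38 ± 0.78), PRPL31, of a bridge between the subunits (0.03 ± 0.76), and the PRPL19 gene AT4G17560 (0.0019 ± 0.70). Every one of these had an adjusted p of 1.00 (edgeR). Without the libraries numbered 1 the test again called 0 of 38 (0.00453% of all genes were called higher). Without Dark polysome-bound library 1 the median difference was 0.43 and without L4h polysome-bound library 1 it was -1.42.

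Genes of short listed length among the 38 had the higher polysome to total changes, as did such genes at large. Listed length ranged from 0.561 kb (PSRP6) to 1.562 kb (PRPS1). It is not the span of the gene on the chromosome. PRPL9, listed at 0.92 kb, is annotated from base 16386395 to base 16388723 of chromosome 3. Spearman's rho of length with the change was -0.78 over the 38 genes and -0.66 over all 21924 genes in L4h, and -0.61 and -0.58 in Dark; genes are not independent replicates and share these libraries. In the class of up to 0.75 kb, the 8 members had a median change of 2.03 in L4h and 2.45 in Dark, beside 1.24 in L4h and 1.07 in Dark for all 2686 genes. In the class above 1 and up to 1.5 kb, the 11 members had 0.80 in L4h and 1.25 in Dark, beside 0.28 in L4h and 0.23 in Dark for all 5525 genes. For light against Dark, the rho over the members was -0.30 in total and -0.43 in polysome-bound RNA, beside -0.01 and -0.10 over all genes.

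**Figure D5:**
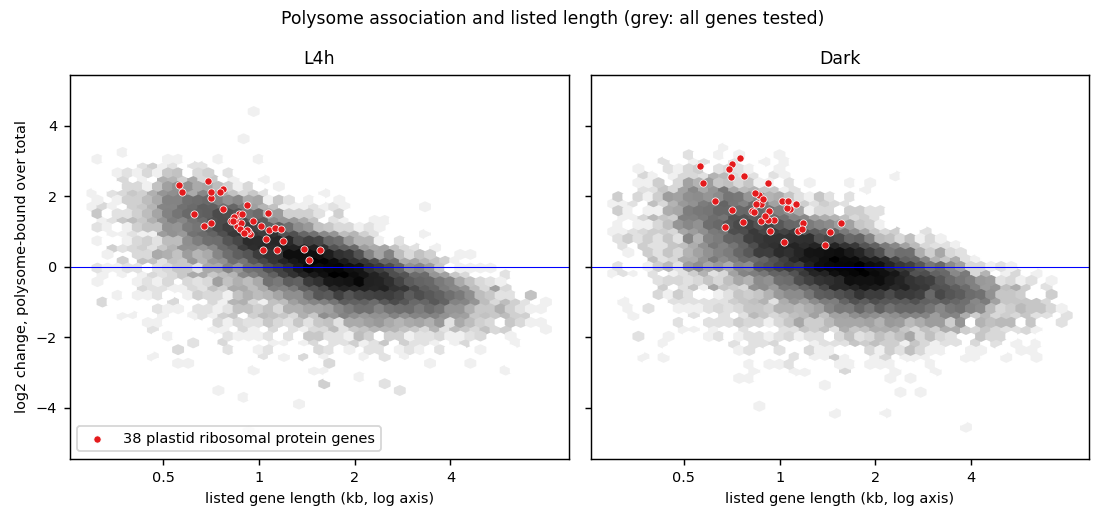
Log2 change of polysome-bound over total RNA against the length listed for each gene (kb, log axis) in L4h (left) and Dark (right), with the 38 genes as red points over all genes tested (grey, darker for more genes). Changes fall with length in both panels, and the red points lie in the upper part of the grey cloud in Dark.

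Beside them, 22 of 30 cytosolic ribosomal protein genes were higher in polysome-bound than in total RNA in L4h (median 1.29) and 19 of 30 in Dark (median 1.24), with 1 lower in Dark. Of 11 plastid translation factor genes 0 were higher and 1 lower in L4h (median -0.29), and 0 and 0 in Dark (median 0.08). Of 11 plastid ribosome assembly genes 0 were higher and 2 lower in L4h (median -0.44), and 0 and 1 in Dark (median 0.20). With same-numbered libraries as a block, 3 translation factor genes were lower in L4h, and of the assembly genes 1 was higher and 5 lower in L4h. Of all genes, 17.5% were called higher and 15.3% lower in L4h in that fit.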

How the data were processed

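Each of the 15 deposited tables lists 33323 nuclear genes with a length, read number and RPKM. Per the file headers the read numbers are reads per gene, and since 84.4% to 87.2% of values are whole (tolerance 1e-06) they are treated as the authors' estimated counts, rounded here for testing. RPKM was computed by the authors from these reads per kilobase of the deposited length (another column, in kilobases) and per M reads of a total 0.981% to 4.34% above the listed sum. Build TAIR10 comes from the submitters' processing notes. Aligner, counting tool, kit and strand are not given in the sources used here.

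Counts were fitted with edgeR 4.0.16 in R 4.3.3 (TMM scaling, a minimum count of 10 in filterByExpr, quasi-likelihood F tests with robust spread, Benjamini-Hochberg over all genes tested, threshold 0.05): 9 total RNA libraries, 6 polysome-bound libraries, and 12 libraries for polysome-bound against total RNA and the interaction. The SE of a change was obtained by dividing it by the square root of F. DESeq2 1.42.0, limma 3.58.1 on log2(RPKM + 1) and log2(RPKM + 0.1), RLE scaling, no filter, a replicate block, all 15 libraries in 1 fit and left-out libraries were alternatives. Fits of only the 2 groups compared and a spread without the robust estimate were chosen after seeing the data. Only the main edgeR fit was run on simulated counts, which held no difference of the libraries numbered 1. This was done for L4h against Dark in each kind of RNA and for polysome-bound against total RNA in Dark. The alternatives, the comparisons with D4h and the interaction were not simulated.

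Pairing of libraries by their replicate number was checked through the correlation, across genes, of their deviations from the means of their groups, and accepted above 0.1 for numbers 1 to 3 alike. L4h with Dark passed (0.39 to 0.60 in total RNA, 0.56 to 0.70 in the polysome fraction), as did the polysome fraction with total RNA (0.12 to 0.38 in L4h, 0.28 to 0.47 in Dark). Pairs with D4h failed. Library 1 stood apart in every group, and the deviations within a group cancel out. A trait shared by the libraries numbered 1 therefore raises the correlations of numbers 2 and 3 as well. Correlations between unlike numbers were not computed, so the check cannot show that numbers 2 and 3 pair.

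The 38 genes and all gene lists were chosen with earlier results of these data known. Full statistics are given for the 4 highest and 4 lowest genes by mean RPKM, the 3 largest and 3 smallest changes of each comparison, the PRPL12 and PRPL19 pairs, and PRPS1, PRPL11, PRPS17 and PRPS21. Outside the members, PRPL12B, PSRP1, PSRP3/2 and the 2 largest called changes of each list are named, and others as values only. Of the members 26 had whole read numbers in every library and 12 fractional ones in some. Promoters and symbols come from RefSeq TAIR10.1, whose annotation matched 32835 genes. The promoters of the other members are not printed here.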

Additional observations from a re-analysis of the deposited data

How the results depend on the processing

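The members' median change in total RNA of L4h against Dark stayed above 0 in all 16 alternatives, but the number of members called changed. Percentages in brackets are the shares of all genes called higher in the same fits. In L4h against Dark, 16 members rose in total RNA (12.3%). There were 36 with DESeq2 (17.2%), 37 with the replicate block (15.2%) and 38 without the libraries numbered 1 (24%). There were 7 with all 15 libraries in 1 fit (10.6%) and 37 with only the 2 groups compared (14.4%). With a library left out there were 0 to 8 (3.73% to 11.1%). In polysome-bound RNA 0 rose (5.36%), against 2 with DESeq2 (10.3%), 38 with the replicate block (21.9%) and 36 without the libraries numbered 1 (9.59%). With a library left out there were 0 to 5 (1.43% to 7.1%), and the median was 0.43 to 2.25. In L4h against D4h 0 rose (6.74%), against 1 with DESeq2 (12.3%), 1 with the replicate block (10.4%) and 38 without the libraries numbered 1 (24.4%). With a library left out there were 0 to 37 (2.44% to 15.1%). The median of 0.53 in L4h against D4h ran from 0.19 to 1.60 with a library left out and was 0.20 with D4h libraries 2 and 3 summed. The D4h against Dark median ran from 0.18 to 1.56 with a library left out.

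For polysome-bound against total RNA in Dark, 7 members were higher (10.5%), against 23 with DESeq2 (14.7%) and 4 with limma at either pseudocount (7.18% and 6.83%). There were 31 with the replicate block (16.7%) and 23 without the libraries numbered 1 (11.3%). With a library left out there were 2 to 16 (5.53% to 10.6%), and the median was 0.70 to 1.97. In L4h 3 were higher (11.6%), against 7 with DESeq2 (15%), 10 with the replicate block (17.5%) and 7 without the libraries numbered 1 (14.1%). With a library left out there were 0 to 3 (6.28% to 10.2%). The median of 1.24 in L4h was 0.68 with limma on RPKM, and in Dark that of 1.65 was 1.10 and 1.12. The interaction median ran from -1.42 to 0.43 with a library left out. Members with an I box numbered 18, and 9 in the 250 bases before the start only.

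Some single genes turned sign. In L4h against D4h, with D4h libraries 2 and 3 summed, PRPL5 was at -0.13, PRPL9 at -0.25 and PRPL28 at -0.094, and with a library left out they ran from -0.14 to 1.39, -0.24 to 1.54 and -0.095 to 1.54. In D4h against Dark PRPL3 ran from -0.080 to 0.87. In L4h against Dark polysome-bound RNA PRPL1 ran from -0.083 to 1.30 and PRPS5 from -0.042 to 1.55. For polysome-bound against total RNA in L4h, PRPL1 was at -0.26 with limma at either pseudocount, -0.017 with the replicate block and -0.31 without the libraries numbered 1; PRPS5 was at -0.046 and -0.047 with limma and -0.20 without the libraries numbered 1, and PRPL3 at -0.091 without them. With a library left out they ran from -0.44 to 0.42, -0.38 to 0.70 and -0.29 to 0.68. In the interaction the PRPL19 gene AT4G17560 was at -0.0046 with DESeq2, -0.0047 with RLE scaling, -0.048 with no filter, -0.20 and -0.22 with limma, -0.10 with the replicate block and -0.37 without the libraries numbered 1. PRPL31 was at -0.020 with no filter and -0.020 without the libraries numbered 1, and PRPL29 at -0.017 without them. With a library left out AT4G17560 ran from -0.91 to 0.44, PRPL29 from -0.37 to 1.08, PRPL31 from -0.74 to 0.78 and PSRP3/1 from -2.58 to 1.02. The cause was not tested in any of these cases.

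Where a left-out library leaves 2 in a group, the spread is pooled over the groups of the fit. For D4h the numbers do not pair the libraries, so the 1 member called with the block in L4h against D4h is no sign of pairing. The block fit of L4h against Dark in total RNA held the D4h libraries too, so its calls do not rest on L4h and Dark pairs alone. Each member had at least 1274 reads in every library.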
